A study of Rattus norvegicus with 9 samples.

Results

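Small RNA of the hippocampal CA1 region was compared between 3 tGCI26h libraries (rats after transient global ischemia of the brain, labelled with hour 26) and 3 Sham libraries, 6 of the 9 libraries of the series. All animals were male Wistar rats of 7 to 8 weeks without any stated genetic change. The other 3 libraries, labelled HPC0h, entered the model only to estimate the spread, and their values are given beside some results. The groups were taken from the column headings. In each group 2 libraries have a heading with numbers and are called a and b, and 1 has a heading without numbers and is called u. No label says whether a library is 1 rat, a pool or a repeat, so the p-values measure only the spread between these libraries.

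PIWI-interacting RNAs (piRNAs) are small RNAs of about 24 to 32 nt that guide PIWI proteins, mainly in the germline, where they silence transposons. They often begin with U, and those made by the ping-pong cycle carry A at position 10. In somatic tissue, size-selected libraries also hold microRNAs and pieces of tRNA, Y RNA and rRNA of similar length, and catalogues of piRNAs contain many such pieces. CA1 pyramidal neurons are known to die days after a short global ischemia. The labels give the profile of piRNAs in CA1 as the subject of the study.

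The table lists 5794 sequences of 18 to 39 nt with normalised tag counts, scaled by the authors to nearly equal library totals. Many listed sequences overlap, so entries that share at least 16 bases by containment or end to start were joined into 1542 families, and their tags were summed. Each family is named by its most abundant entry. The sequences on which the differences turn are these, 5′ to 3′. For the first 3, catalogued piRNAs, capitals mark bases 1 and 10.
rno_piR_011022: UaugguuuaCugugugaacauagccacaag
rno_piR_017990: AgcagcaaaUacacccaggaggaguagaa
rno_piR_014971: CaaggcacuUcuggcuuucugaaaggc
The next pair, also catalogued, comes from opposite strands of the B1 repeat, a short interspersed element of rodent genomes. Capitals mark the 28 bases over which each is the reverse complement of the other.
rno_piR_000618: CCCUGGCUGUCCUGGAACUCACUUUGUAg
rno_piR_009428: UACAAAGUGAGUUCCAGGACAGCCAGGGc
A family of initiator methionine tRNA led by the following entry was higher in the numbered tGCI26h libraries, and its capitals mark the anticodon.
novel_6693_x606: cggaagcgugcugggccCAUa
A family without a match was lower, and its capitals mark the run of 14 A at its end.
novel_11554_x284: uaaugguucguuuguAAAAAAAAAAAAAA
Of the first 3, rno_piR_011022 alone starts with U, and none has A at position 10.

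The u libraries stood apart from the numbered ones before any group was compared. tGCI26h u listed 708 entries above 0 and Sham u listed 1201, against 2936 and 2798 in tGCI26h a and b and 2795 and 2558 in Sham a and b. Entries of 33 to 39 nt took 12.3% of the tGCI26h u total, against 1.69% and 2.05% in tGCI26h a and b, 2.01% in Sham u, and 1.39% and 1.14% in Sham a and b. The 24-nt entries ran the other way, at 0.466% in tGCI26h u and 1.65% in Sham u, against 6.85% and 9.19% in tGCI26h a and b and 7.07% and 5.96% in Sham a and b. The values of the u libraries are therefore given beside those of the numbered ones, and tests are given for the numbered libraries and, for the piRNAs that stand out, for all.

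**Figure D1:**
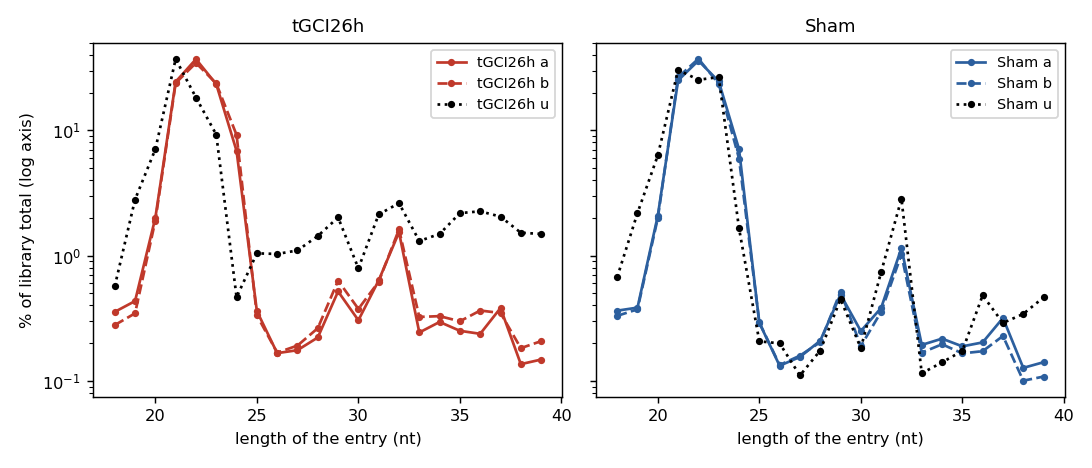
Percent of the library total (log axis) by length of the entry in nt, for the 3 tGCI26h libraries on the left and the 3 Sham libraries on the right. The numbered libraries a and b run together in both groups, while tGCI26h u (dotted) lies above them at 33 to 39 nt, where it holds 12.3% of its total.

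A block of catalogued piRNAs did not share this difference. The lowest value of any entry without a catalogue name was 34 in tGCI26h u and 10 in Sham u. Below these floors, 4 values were listed in tGCI26h u and 6 in Sham u. All came from 6 catalogued piRNAs, among them rno_piR_000618 and rno_piR_017990. Of 14 catalogued piRNAs listed in all 6 libraries, 7 had u values within 1.5-fold of the mean of a and b in both groups, against 9 of 356 entries without a catalogue name. Among entries whose numbered libraries averaged under 200 tags, the counts were 6 of 10 and 1 of 233. This criterion was set after the values had been seen, and what lies behind it was not tested. It concerns rno_piR_011022, rno_piR_017990, rno_piR_000618, rno_piR_014971 and rno_piR_009428, whose u values therefore differ from those of nearly every other entry.

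**Figure D2:**
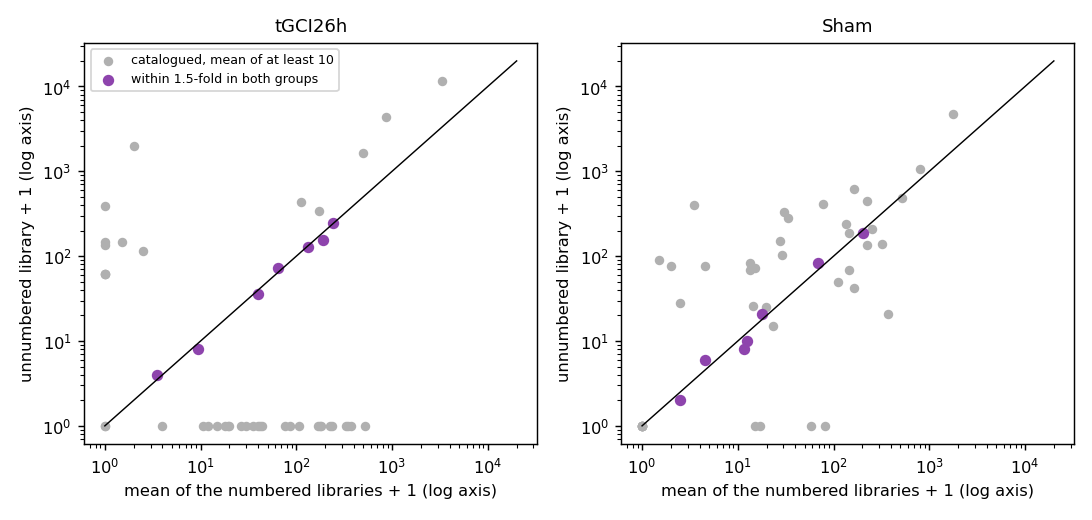
Value in the u library (plus 1, log axis) against the mean of the numbered libraries a and b (plus 1, log axis) for catalogued piRNAs in tGCI26h (left) and Sham (right); the line marks equal values. The 7 piRNAs within 1.5-fold in both groups (purple) lie along the line, and many of the others lie at 0 in tGCI26h u or far from the line.

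With all 9 libraries in the model, none of 590 families passed (0.0%, limma on log2 of the value plus 1, Benjamini-Hochberg adjusted p below 0.05). At an unadjusted p below 0.05, 9 families (1.53%) were higher in tGCI26h and 2 (0.339%) lower, and the smallest adjusted p was 0.67. Without tGCI26h u, 1 family passed, rno_piR_011022, with a limma adjusted p of 0.0136. With library type (u or numbered) as a term in the model, an alternative added after the values had been seen, 3 of 590 passed, all higher. They were rno_piR_011022, rno_piR_017990 and rno_piR_000618, each with a limma adjusted p of 0.0112, and all 3 belong to the catalogued piRNAs whose u values lie close to the numbered ones. With the 7 numbered libraries, 8 of 535 families passed (1.5%), 5 higher (0.935%) and 3 lower (0.561%). This count was 3 without HPC0h b, which enters only through the spread, and 5 with a minimum mean of 10. With median-of-ratios or quantile scaling it was 5 higher and 1 lower. At an unadjusted p below 0.05, 50 families (9.35%) were higher and 23 (4.3%) lower.

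The 4 catalogued piRNAs with the clearest separation were higher in all 3 tGCI26h libraries than in any Sham library. rno_piR_011022 had 208, 174 and 153 tags in tGCI26h a, b and u, against 16, 18 and 20 in Sham a, b and u. The 3 HPC0h libraries had 120, 126 and 112 tags, nearer to tGCI26h than to Sham. In the numbered libraries its mean was 11.2-fold that of Sham (log2 difference 3.41 ± 0.13, SE, limma adjusted p = 0.000452), and the call held in each of 20 alternatives. Over all libraries the log2 difference was 3.23 ± 0.91 with a limma adjusted p of 0.67.

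rno_piR_017990 had 63, 64 and 72 tags in tGCI26h a, b and u, against 12, 9 and 7 in Sham a, b and u. The groups did not overlap, and the 3 HPC0h libraries lay between them at 25, 27 and 22. The log2 difference in the numbered libraries was 2.50 ± 0.17 (SE, limma adjusted p = 0.00524). The call was lost only when HPC0h was left out of the model, with an adjusted p of 0.0665. Over all libraries the log2 difference was 2.73 ± 0.89 (SE, limma adjusted p = 0.67).

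rno_piR_000618, antisense to B1, had 47, 30 and 35 tags in tGCI26h a, b and u, against 3, 4 and 5 in Sham a, b and u. HPC0h again lay between, at 16, 14 and 10. Its log2 difference in the numbered libraries was 3.11 ± 0.32 (SE, limma adjusted p = 0.0156). The call held in 14 of 20 alternatives and was lost, among others, without tGCI26h a, Sham a, Sham b or HPC0h b, with adjusted p-values up to 0.127. Over all libraries the log2 difference was 2.93 ± 0.85 (SE, limma adjusted p = 0.67).

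Its complement rno_piR_009428, on the sense strand of B1, had 250, 233 and 248 tags in tGCI26h a, b and u, against 200, 203 and 186 in Sham a, b and u. The groups did not overlap, but the numbered means differed by only 1.2-fold and the difference did not pass (log2 0.26 ± 0.14, SE, limma adjusted p = 0.465). In HPC0h rno_piR_009428 was lowest, at 76, 67 and 58 tags. Whether the difference is larger for the antisense strand than for the sense strand was not tested.

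rno_piR_014971 had 125, 137 and 126 tags in tGCI26h a, b and u, against 65, 72 and 83 in Sham a, b and u. HPC0h lay at the Sham level, with 60, 71 and 76 tags. The groups did not overlap and the numbered means differed 1.91-fold, but the difference missed the threshold (log2 0.93 ± 0.14, SE, limma adjusted p = 0.076). It passed without HPC0h a, at 0.045. Over all libraries the log2 difference was 0.82 ± 0.91 (SE, limma adjusted p = 0.744).

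**Figure D3:**
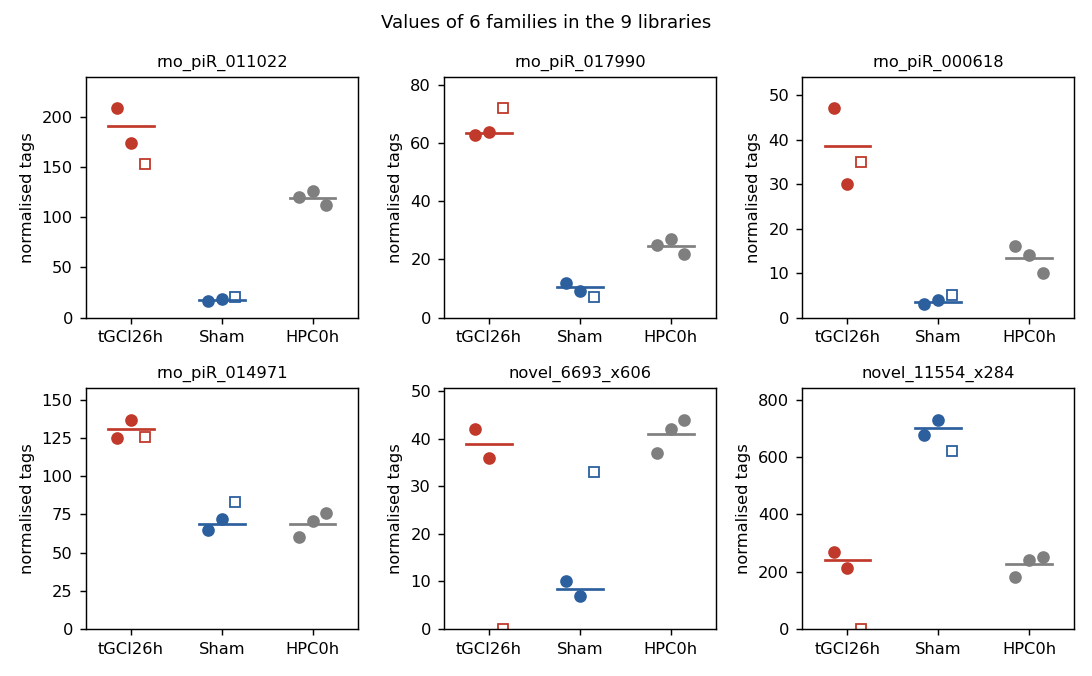
Normalised tags of 6 families in tGCI26h (left), Sham and HPC0h libraries, each axis starting at 0; filled circles are numbered libraries, open squares the u libraries, and bars the mean of the numbered libraries. rno_piR_011022, rno_piR_017990, rno_piR_000618 and rno_piR_014971 are higher in every tGCI26h library than in every Sham library, whereas novel_6693_x606 and novel_11554_x284 are at 0 in tGCI26h u.

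The other families that passed in the numbered libraries had low values or no tags in tGCI26h u. The initiator methionine tRNA family novel_6693_x606 had 42, 36 and 0 tags in tGCI26h a, b and u, against 10, 7 and 33 in Sham a, b and u. HPC0h had 37, 42 and 44, so among the numbered libraries the Sham pair was the low one. Its log2 difference in the numbered libraries was 2.09 ± 0.20 (SE, limma adjusted p = 0.0125), and the u libraries ran the opposite way. The call was lost without tGCI26h a, tGCI26h b or HPC0h b and without the whole HPC0h group, with adjusted p-values up to 0.105.

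The A-ended family novel_11554_x284 had 268, 213 and 0 tags in tGCI26h a, b and u, against 676, 730 and 621 in Sham a, b and u. HPC0h had 182, 242 and 252, so here too the Sham libraries stood apart from both other groups. The log2 difference in the numbered libraries was -1.55 ± 0.20 (SE, limma adjusted p = 0.0454). The call held in 11 of 20 alternatives and was lost without tGCI26h a, tGCI26h b, Sham a, Sham b, HPC0h b or HPC0h c and without the whole HPC0h group. It was also lost with entries not joined and with the most abundant member in place of the sum, and the adjusted p-values reached 0.307. Its 3 entries differ by 1 A each and have nearly the same values, so the sum counts about 1 sequence several times.

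The last 3 calls rest on families with at most 4 summed tags in the numbered libraries and no spread within groups. novel_11832_x276 had 4 and 4 tags in tGCI26h a and b, against 0 and 0 in Sham a and b, yet 0 in tGCI26h u and 67 in Sham u. novel_11777_x277 and novel_6847_x586, a form of miR-322-5p, each had 1 and 1 tags in tGCI26h a and b, against 2 and 2 in Sham a and b. In the u libraries novel_11777_x277 had 0 in tGCI26h and 20 in Sham, and novel_6847_x586 had 0 in tGCI26h and 74 in Sham. These differences are of 1 to 4 rounded tags.

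**Figure D4:**
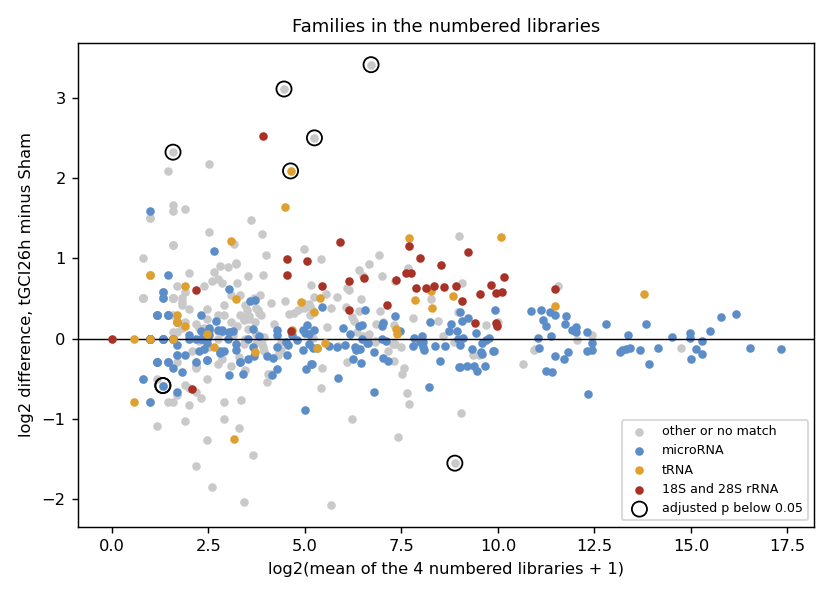
Log2 difference (tGCI26h minus Sham) in the numbered libraries against log2 of the mean of the 4 numbered libraries plus 1, one point a family, coloured by class. The 8 families with an adjusted p below 0.05 are circled, and the 36 families of 18S and 28S rRNA (dark red) lie mostly above 0.

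Among 46 catalogued piRNAs with a mean of at least 10 tags over the 6 libraries, 25 matched another RNA, 11 of them a tRNA, 5 a microRNA, 5 a B1 or B2 repeat and 4 an 18S or 28S rRNA. Only 16 of the 46 start with U and 14 have A at position 10. In the numbered libraries 16 were higher in both tGCI26h libraries than in both Sham libraries and 2 were lower, beside 27.4% and 16.1% of the 372 families with the same minimum mean. The 2 lower ones reach that mean only through the u libraries. rno_piR_000119 had 1, 1 and 1987 tags in tGCI26h a, b and u, against 3, 2 and 396 in Sham a, b and u. rno_piR_003035 had 0, 0 and 0 tags in tGCI26h a, b and u, against 1, 1 and 75 in Sham a, b and u. Over all 6 libraries 5 were higher without overlap and 1, rno_piR_003035, was lower, beside 5.38% and 5.91% of the 372 families. The 5 are rno_piR_011022, rno_piR_017990, rno_piR_000618, rno_piR_014971 and rno_piR_009428. Their u values lie close to the numbered ones, unlike those of nearly every other entry. Their share is therefore not directly comparable with that of the 372 families. Of the 46, 27 were at 0 in tGCI26h u, against 11 in Sham u. The 46 are single entries, whereas the shares given beside them are of joined families, so a family can count more than once among the 46. For example, rno_piR_005598 and rno_piR_011541 belong to the same lysine tRNA family and are both among the 16 higher ones. The most abundant of the 46, rno_piR_005567, is a 5′ piece of glycine tRNA.

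Of the 21 without a match, 11 carry CUGA within their last 8 bases. Among all listed entries of 24 to 32 nt, 4.23% of those without a catalogue name and 20.2% of those with one carry it. Both comparison sets include entries that match another RNA, and the second includes the 21. UGAUG within the first 14 bases occurred in 6 of the 21, against 0.77% of the entries without a catalogue name and 14.6% of those with one. Of the 21, 5 carried both. CUGA and UGAUG are the box D and box C letters of C/D small nucleolar RNAs, which guide rRNA methylation, and letters alone do not assign an entry to one. Only the strand as listed was searched, and UGAUG and CUGA can overlap by the letters UGA. Of the 11 with CUGA, 1 was higher in both numbered tGCI26h libraries and none was lower. Neither rno_piR_011022 nor rno_piR_017990 ends in CUGA.

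The most uniform class was ribosomal RNA. rRNA makes up most cellular RNA, and its pieces appear in small RNA libraries through regulated cleavage as well as through decay. Of 36 families from 18S and 28S rRNA, 28 were higher in both numbered tGCI26h libraries than in both numbered Sham libraries and none was lower. The corresponding shares of all families were 24.3% higher and 13.1% lower. Their median log2 difference was 0.65, against 0.06 over all families, and 34 of 36 were above 0. With median-of-ratios scaling 34 were above 0, and with quantile scaling 31. At an unadjusted limma p below 0.05, 11 were higher, beside 9.35% of all families, and none passed after adjustment. With the u libraries the median was 0.95, but 11 of the 36 were below 0 and 14 were at 0 in tGCI26h u. All 36 were assigned by their letters, after the values had been seen, without a reference sequence. The families come from only 2 RNAs, so they are not independent. RNA integrity values are not given in the sources used here, and the part of RNA quality in this difference was not tested.

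Examples of these rRNA pieces, chosen after their values had been seen, are 3 from 28S rRNA and, last, 1 from 18S rRNA.
novel_9031_x397: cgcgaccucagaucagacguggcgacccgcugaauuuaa
novel_9098_x393: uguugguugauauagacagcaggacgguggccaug
novel_13953_x220: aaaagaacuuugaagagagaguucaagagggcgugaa
novel_10435_x326: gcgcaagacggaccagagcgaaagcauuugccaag
The family of novel_9031_x397, the 5′ end of 28S rRNA, had 2955, 3968 and 10642 tags in tGCI26h a, b and u, against 1893, 2650 and 521 in Sham a, b and u. All 3 tGCI26h values lay above all 3 Sham values. The log2 difference was 0.61 ± 0.21 in the numbered libraries (SE, limma adjusted p = 0.33) and 1.86 ± 0.80 over all libraries (adjusted p = 0.67).

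The family of novel_13953_x220 had 710, 906 and 0 tags in tGCI26h a, b and u, against 401, 359 and 28 in Sham a, b and u. Its numbered means differed 2.13-fold, and the order was turned in the u libraries. The order was likewise turned for the family of novel_9098_x393. It had 1590, 1277 and 0 tags in tGCI26h a, b and u, against 945, 736 and 27 in Sham a, b and u. The 18S family novel_10435_x326 had 84, 82 and 0 tags in tGCI26h a, b and u, against 37, 34 and 75 in Sham a, b and u. It had the smallest adjusted p of the class (log2 1.20 ± 0.21, SE, limma adjusted p = 0.103).

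Summed over all entries named 28S rRNA, tags were 13893, 14831 and 80170 in tGCI26h a, b and u, against 9833, 9037 and 13635 in Sham a, b and u. The tGCI26h values all lay above the Sham values, 1.52-fold in the means of the numbered libraries. HPC0h had 13078, 16060 and 10431, a range that reaches below and above the numbered tGCI26h libraries. For 18S rRNA the sums were 3677, 4173 and 7784 in tGCI26h a, b and u, against 3199, 2382 and 1931 in Sham a, b and u. Here too the groups did not overlap, and HPC0h spanned both, at 3409, 4817 and 1826. In contrast, 5.8S rRNA had 464, 388 and 1264 tags in tGCI26h a, b and u, against 458, 370 and 1027 in Sham a, b and u, which overlap. For 5S rRNA the values were 317, 1234 and 13338 in tGCI26h a, b and u, against 334, 211 and 2980 in Sham a, b and u. The tGCI26h a value was below that of Sham a.

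**Figure D5:**
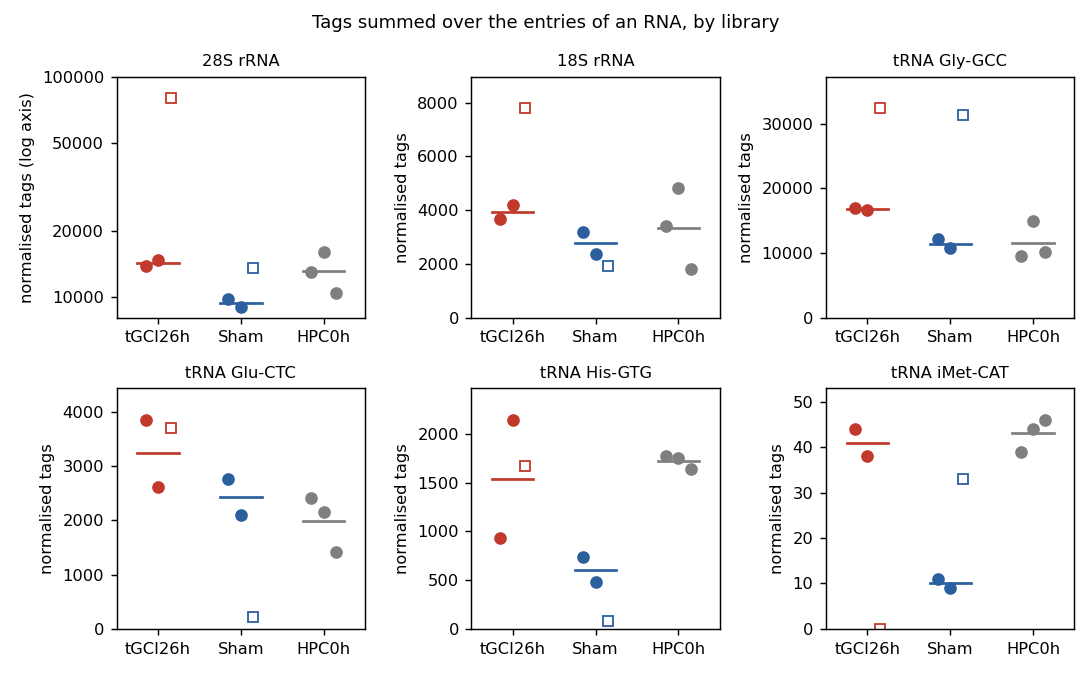
Normalised tags summed over the entries of 6 RNAs in tGCI26h (left), Sham and HPC0h libraries; filled circles are numbered libraries, open squares the u libraries, and bars the mean of the numbered libraries. 28S rRNA (log axis) and 18S rRNA are higher in every tGCI26h library than in every Sham library, glycine tRNA is high in both u libraries, and initiator methionine tRNA is at 0 in tGCI26h u.

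tRNA families lay closer to the background than those of rRNA. Pieces of tRNA are cut from mature tRNA in the anticodon loop by angiogenin and related nucleases and are known to accumulate under oxidative and ischemic stress. Of 33 tRNA families tested in the numbered libraries, 10 were higher without overlap in tGCI26h and none was lower, beside 24.3% and 13.1% of all families. At an unadjusted limma p below 0.05, 4 were higher, beside 9.35% of all families. After adjustment 1 passed, the initiator methionine family, beside 0.935% of all families. Their median log2 difference was 0.33 in the numbered libraries, 0.25 with median-of-ratios and 0.19 with quantile scaling. Over all libraries it was 0.09, and 22 of 40 families were above 0.

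The leading 5′ pieces of glycine, glutamate and histidine tRNA, which hold most of the cytosolic tRNA tags, were these.
novel_3169_x1751: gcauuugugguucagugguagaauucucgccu
novel_10360_x329: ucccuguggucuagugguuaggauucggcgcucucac
novel_3850_x1319: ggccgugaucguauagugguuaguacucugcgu
The glycine tRNA (Gly-GCC) entries summed to 16992, 16721 and 32372 tags in tGCI26h a, b and u, against 12157, 10738 and 31337 in Sham a, b and u. The u libraries of both groups lay far above the others, so the groups overlap. In the numbered libraries alone the means differed 1.47-fold and the leading family did not pass (log2 0.56 ± 0.24, SE, limma adjusted p = 0.394).

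Histidine tRNA (His-GTG) entries, which start with the extra G added to this tRNA after transcription, had 935, 2143 and 1672 tags in tGCI26h a, b and u, against 733, 476 and 81 in Sham a, b and u. All tGCI26h values were above all Sham values, and HPC0h had 1773, 1757 and 1635. The family did not pass (numbered log2 1.26 ± 0.43, SE, limma adjusted p = 0.33). Glutamate tRNA (Glu-CTC) entries had 3855, 2625 and 3712 tags in tGCI26h a, b and u, against 2759, 2106 and 222 in Sham a, b and u, so tGCI26h b lay below Sham a. Lysine tRNA (Lys-TTT) entries had 268, 272 and 0 tags in tGCI26h a, b and u, against 186, 202 and 958 in Sham a, b and u. They were higher in the numbered and lower in the u library of tGCI26h.

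Without glycine, the cytosolic tRNA sums were 6932, 7301 and 15855 tags in tGCI26h a, b and u, against 5394, 3976 and 3838 in Sham a, b and u. These groups did not overlap, and the numbered means differed 1.52-fold. With glycine included, the sums were 23924, 24022 and 48227 tags in tGCI26h a, b and u. In Sham a, b and u they were 17551, 14714 and 35175. Sham u then lay above tGCI26h a and b, so the groups overlapped. Entries of mitochondrial leucine tRNA had 138, 206 and 56142 tags in tGCI26h a, b and u, against 183, 132 and 2901 in Sham a, b and u. This RNA alone exceeded the cytosolic tRNA sum of tGCI26h u, 48227 tags, which was itself above the 23924 and 24022 of tGCI26h a and b. Y1 RNA, a component of Ro particles, had 7799, 10975 and 23678 tags in tGCI26h a, b and u, against 7206, 8354 and 4594 in Sham a, b and u, and its numbered values overlapped.

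As shares of the library total, rRNA took 1.85%, 2.08% and 10.4% in tGCI26h a, b and u, against 1.4%, 1.21% and 2.04% in Sham a, b and u. For tRNA the shares were 2.43%, 2.45% and 10.6% in tGCI26h a, b and u, against 1.79%, 1.5% and 3.96% in Sham a, b and u. Entries of 24 to 32 nt took 12.3% ± 1.35 of the tGCI26h total and 8.5% ± 1.81 of the Sham total (SD, n = 3 each), and the groups did not overlap. Entries of 18 to 23 nt took 82.4% ± 6.51 of the tGCI26h total and 90% ± 1.48 of the Sham total (SD, n = 3 each), also without overlap. None of 12 shares passed. The exact two-sided permutation test of 3 against 3 libraries allows no p below 0.1, and the smallest adjusted p was 0.4. In the numbered libraries the 24 to 32 nt share averaged 12.1% in tGCI26h and 9.48% in Sham. Most of it was 24-nt entries, at 6.85% and 9.19% in tGCI26h a and b and 7.07% and 5.96% in Sham a and b. The 24-nt entries took only 0.466% in tGCI26h u and 1.65% in Sham u. Without them, the share in Sham u was above that in tGCI26h a and b, so the groups overlapped. The family of miR-7a-5p, led by a 24-nt entry, had 68376, 94642 and 0 tags in tGCI26h a, b and u. In Sham a, b and u it had 71431, 59302 and 14896. The share therefore includes microRNA and is not a measure of piRNAs alone.

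microRNAs, which pair through their seed (bases 2 to 8) with messenger RNAs and repress them, held 89.6%, 89.8% and 64.9% of the tags in tGCI26h a, b and u, against 91.1%, 91.2% and 89.2% in Sham a, b and u. Of 217 microRNA families tested in the numbered libraries, 29 were higher in tGCI26h without overlap and 49 lower, or 13.4% and 22.6%, beside 24.3% and 13.1% of all families. At an unadjusted limma p below 0.05, 9 of the 217 were higher and 13 lower, beside 9.35% and 4.3% of all families. The miR-322-5p form alone passed, as lower, beside 0.561% of all families. Among the microRNA families below 0.05 unadjusted, the 7 above 1000 tags on average over the 7 numbered libraries are shown here. Their mature sequences are shown to make the seeds visible, from RefSeq (GRCr8), with capitals for the seed.
miR-219a-2-3p: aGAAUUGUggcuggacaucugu
miR-21-5p: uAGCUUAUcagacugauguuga
miR-9a-5p: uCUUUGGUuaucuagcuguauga
miR-127-3p: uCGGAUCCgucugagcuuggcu
miR-139-5p: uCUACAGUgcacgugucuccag
miR-378a-3p: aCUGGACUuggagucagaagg
miR-221-3p: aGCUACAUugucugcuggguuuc
No seed is shared among the 7. The first 5 were lower and the last 2 higher in the numbered tGCI26h libraries, and none passed after adjustment. miR-16-5p exceeds that mean only through its u libraries, with 398, 496 and 5038 tags in tGCI26h a, b and u, against 542, 599 and 5041 in Sham a, b and u (numbered log2 -0.36 ± 0.13, SE, limma adjusted p = 0.346).

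miR-219a-2-3p (chr3:33516517-33516538, minus strand), which promotes the maturation of oligodendrocytes, had 4399, 3589 and 0 tags in tGCI26h a, b and u, against 6614, 6166 and 2194 in Sham a, b and u. The value was lower in tGCI26h within both library types, although Sham u lay below tGCI26h a and b. Its numbered means stood at 0.625 of Sham (log2 -0.68 ± 0.14, SE, limma adjusted p = 0.125). HPC0h had 5254, 4866 and 4371. Of the other oligodendrocyte microRNAs, miR-338-3p had 1, 1 and 1265 tags in tGCI26h a, b and u, against 1, 1 and 363 in Sham a, b and u. miR-219a-5p had 1, 1 and 0 in both groups, so the list rests on miR-219a-2-3p in the numbered libraries.

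miR-21-5p (chr10:71902653-71902674, minus strand), which is known to respond to injury and to restrain apoptosis, had 2392, 2251 and 565 tags in tGCI26h a, b and u, against 3108, 3100 and 6295 in Sham a, b and u. All tGCI26h values lay below all Sham values, at a log2 difference of -0.42 ± 0.10 in the numbered libraries (SE, limma adjusted p = 0.194). miR-9a-5p, a neural microRNA and the most abundant family, had 159222, 156495 and 31712 tags in tGCI26h a, b and u, against 175688, 168437 and 226940 in Sham a, b and u. It too did not overlap, but its numbered means differed little, at 0.917 of Sham (log2 -0.12 ± 0.04, SE, limma adjusted p = 0.297).

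miR-127-3p (chr6:134328510-134328531, plus strand), from the imprinted Dlk1-Meg3 region, had 31117, 29130 and 7568 tags in tGCI26h a, b and u, against 37268, 34671 and 12689 in Sham a, b and u. tGCI26h was lower within each library type, and Sham u lay below tGCI26h a and b. miR-221-3p (chrX:6023246-6023268, plus strand) ran the other way only in the numbered libraries, with 2492, 2464 and 0 tags in tGCI26h a, b and u, against 1987, 1897 and 4009 in Sham a, b and u. miR-378a-3p had 3262, 2976 and 2123 tags in tGCI26h a, b and u, against 2597, 2509 and 3041 in Sham a, b and u, and likewise changed order in the u libraries. miR-542-3p came closest to the threshold among microRNAs above a few tags, with 233, 239 and 0 tags in tGCI26h a, b and u, against 355, 365 and 260 in Sham a, b and u. Its log2 difference was -0.61 ± 0.10 in the numbered libraries (SE, limma adjusted p = 0.0827).

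The microRNA lists for cell types describe the tissue behind the libraries. All 10 neuronal microRNAs had entries, and they summed to 287971, 288399 and 239546 tags in tGCI26h a, b and u, against 306530, 313038 and 403335 in Sham a, b and u. In the numbered libraries 2 of the 10, miR-9-3p and miR-134-5p, were higher without overlap in tGCI26h. Another 2, miR-9-5p and miR-128-3p, were lower. These counts lie near the 13.4% higher and 22.6% lower of all microRNA families. None passed, and the median log2 difference was 0.03. In bulk tissue, fewer cells of a type and less of an RNA per cell cannot be told apart. miR-124-3p, the neuron-enriched microRNA, had 3572, 5029 and 116433 tags in tGCI26h a, b and u, against 3827, 4155 and 52807 in Sham a, b and u, so its level followed the library type.

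The myeloid markers miR-223-3p and miR-155-5p were at 0 in all 6 libraries, miR-142-5p had tags only in Sham u (14), and miR-142-3p had no entry. Only listed sequences have values, and the leading entries of several markers are short. They are 18 nt for miR-142-5p, 19 nt for miR-338-3p and 20 nt for miR-223-3p, miR-155-5p and miR-219a-5p. A 0, a low value or a missing entry therefore does not show that a microRNA or cell type was absent. miR-146a-5p had 137, 161 and 0 tags in tGCI26h a, b and u, against 161, 158 and 395 in Sham a, b and u. The endothelial pair summed to 9035, 8248 and 3839 in tGCI26h a, b and u, against 9313, 10088 and 4201 in Sham a, b and u. The red-cell microRNA miR-451-5p had 46, 48 and 1626 tags in tGCI26h a, b and u, against 72, 61 and 864 in Sham a, b and u. It was lower in the numbered and higher in the u library of tGCI26h, with an unadjusted limma p of 0.0244 and an adjusted p of 0.311 in the numbered libraries. The choroid plexus marker miR-204-5p had 133, 142 and 2124 tags in tGCI26h a, b and u, against 136, 106 and 785 in Sham a, b and u, and miR-200a-3p, miR-200b-3p, miR-211-5p and miR-449a-5p had no entry. miR-34b-5p of the same list had 141, 217 and 0 in tGCI26h a, b and u, against 151, 136 and 68 in Sham a, b and u. These tags are of 1 entry, rno_piR_010469, a catalogued piRNA of 30 nt that shares at least 16 bases with miR-34b-5p. They are therefore not a value of the mature microRNA itself. miR-34c-5p had at most 2 tags.

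Of the 12 microRNAs on the hypoxia, activity and injury list, 11 had entries, and none was higher without overlap in the numbered tGCI26h libraries. miR-21-5p, miR-34a-5p and miR-23a-3p were lower without overlap, a share near the 22.6% of all microRNA families, and none of the 10 tested passed. Tests were of families, so miR-27a-3p and miR-107-3p were tested only within the families led by miR-27b-3p and miR-103-3p. miR-210-3p, the main hypoxia-induced microRNA, had 18, 32 and 0 tags in tGCI26h a, b and u, against 21, 26 and 0 in Sham a, b and u, which overlap. miR-34a-5p, a target of p53, had 79, 90 and 0 tags in tGCI26h a, b and u, against 114, 159 and 361 in Sham a, b and u. The activity-induced miR-132-3p had 637, 774 and 0 tags in tGCI26h a, b and u, against 827, 755 and 988 in Sham a, b and u, and its numbered values overlapped.

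The family novel_11554_x284 was not the only one with a run of A that was low in tGCI26h. Of 5 families without a match, with a mean of at least 10 tags and an entry with 6 or more A at one end, 4 were lower in all 3 tGCI26h libraries than in any Sham library, beside 5.91% of the 372 families with that mean. This group was formed after the values had been seen and is given without a test. novel_4017_x1232 had 421, 310 and 248 tags in tGCI26h a, b and u, against 648, 728 and 1504 in Sham a, b and u. novel_13804_x223 had 116, 87 and 0 in tGCI26h a, b and u, against 236, 236 and 690 in Sham a, b and u, and novel_14262_x213, with the smallest numbered difference of the 4, had 39, 27 and 0 in tGCI26h a, b and u, against 47, 54 and 61 in Sham a, b and u. The fifth family, novel_4450_x1068, had 948, 457 and 3006 in tGCI26h a, b and u, against 709, 814 and 48 in Sham a, b and u. novel_4017_x1232 shares 14 identical bases with novel_13804_x223 and 13 with novel_14262_x213, so these families may not be independent. The 4 families averaged lower in HPC0h than in the numbered Sham libraries as well, for example 194, 269 and 358 tags for novel_4017_x1232.

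Of 372 families with a mean of at least 10 tags, 20 (5.38%) were higher in all 3 tGCI26h libraries than in any Sham library and 22 (5.91%) were lower. Of the 22, 16 were at 0 in tGCI26h u. Among the 8 highest by difference, besides those given above, the 28S family novel_8940_x403 had 264, 284 and 1195 tags in tGCI26h a, b and u, against 166, 144 and 0 in Sham a, b and u. The 28S family novel_14076_x217 had 26, 34 and 768 in tGCI26h a, b and u, against 15, 14 and 0 in Sham a, b and u. The family novel_5276_x845, a 3′ piece of aspartate tRNA, had 30, 33 and 3331 in tGCI26h a, b and u, against 17, 5 and 28 in Sham a, b and u. miR-1224 had 52, 45 and 316 in tGCI26h a, b and u, against 32, 42 and 0 in Sham a, b and u. The differences between the u libraries were the larger part in all 4. The 8 also include novel_7962_x471 and novel_11530_x285, each with 1, 3 and 68 tags in tGCI26h a, b and u, against 0, 0 and 0 in Sham a, b and u. Both reach the minimum mean only through tGCI26h u. Among the lower ones, miR-148b-3p had 2079, 2021 and 0 tags in tGCI26h a, b and u, against 2359, 2097 and 2438 in Sham a, b and u, and miR-384-5p had 127, 128 and 0, against 152, 159 and 572.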

How the data were processed

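The deposited values are scores: tag counts that the authors had normalised to nearly equal totals (961372 to 992081 per library) and rounded, as read from the values, since no file header or label gives the formula; depth is therefore unknown. Per the labels' protocols, total RNA was ligated to adaptors, amplified and size-selected, with Novoalign 3.02.12 and cutadapt 1.9.3 listed in the submitters' processing notes. The use of strand, build and piRNA catalogue release is not given in the sources used here.

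Blank values were taken as 0. Overlapping entries were joined into families because 1083 of 3524 entries above 0 repeat the values of another member of their family, so a sum can count a tag several times. limma 3.58.1 (R 4.3.3) was run with an intensity trend on log2(value + 1), 1 coefficient per group, all groups sharing the spread, Benjamini-Hochberg adjustment at 0.05; differences of low families are understated on this scale. The limma fit was tested only on simulated data with the same spread for every family and library. Those data held no u libraries that differ from the rest, so that test does not cover this feature of the real values. Shares were compared by exact permutation. microRNAs were matched to 724 RefSeq mature sequences (GRCr8) and other RNAs by stretches of their known letters. The exceptions are 39 families that were named by their letters, without a reference sequence, after values had been seen. Among them are all 36 of 18S and 28S rRNA and those of miR-124-3p, miR-99a-5p and mitochondrial leucine tRNA. By rule, named families were those called, the 8 most abundant, up to 8 non-overlapping ones with the largest difference in each direction, the most abundant of each class, catalogued piRNAs with a mean of at least 10 and the listed microRNAs, and the text gives part of them. The other rRNA and tRNA examples, the A-ended families, miR-542-3p and the 7 abundant microRNAs at an unadjusted p below 0.05 were chosen after their values were seen. Members and lists were chosen with earlier results of these data known. One rRNA family is not reported here. Alternatives covered pseudocounts, filters, scaling, joining and each library left out.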

Additional observations from a re-analysis of the deposited data

How the results depend on the processing

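With all libraries, no family passed in any alternative except 1 without tGCI26h u, so leaving out 1 library gave 0 to 1, and 3 with library type as a term. In the numbered libraries, 8 families passed, 5 with a mean of at least 10, 22 with entries not collapsed, and 3 (without HPC0h b) to 12 (without HPC0h a) with 1 library left out; the cause was not tested. The difference in the share with first base U, -9.54 percentage points, was -14.7 to 0.441 with 1 library left out, the last without tGCI26h u. For A at position 10 it was -1.83, 1.07 in the numbered libraries, and -6.87 to 6.12 with 1 library left out. For catalogued names 0.546 became -0.301 as a share of the entries listed above 0. For entries without a match 2.26 became -0.207 in the numbered libraries and -3.20 as a share of entries. The median of all families over all libraries was -0.33, -0.63 with median-of-ratios and 0.02 with quantile scaling. Of the values of named families under the alternatives, 1729 kept their side of the threshold, 30 lost a call and 6 gained one. The sign turned in 39 of 955 values over all libraries and 10 of 810 in the numbered libraries, but in none of the 157 values of families called there. No paired analysis was possible because the columns carry no replicate number. With 2 numbered libraries a group and unknown depth, small differences cannot be resolved, and a 0 in a u library sets no limit.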
